A study of Mus musculus with 11 samples.

Results

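Of the 20888 gene rows measured in RNA of the mouse lumbar spinal cord, 73 make up a set of extracellular matrix genes. They were chosen by symbol, with earlier results of these data known. The set holds 44 collagen chains, 11 laminin chains and the nidogens Nid1 and Nid2, which belong to basement membranes. It also holds the small leucine-rich proteoglycans Dcn, Lum, Fmod, Bgn and Ogn, and the matrix glycoproteins Fn1, Aebp1, Fbln1, Fbln2, Sparc, Wisp2 and Postn. Igfbpl1, Slc6a13 and Aldh1a2 are included as genes of the meninges, the membranes around the cord. Col4a3bp entered through the pattern of its symbol alone: it encodes a ceramide transfer protein and is no collagen. Values are RPKM, read numbers divided by gene length and by sequencing depth, so levels can be compared between genes per length. Of the 73 members, 55 reached 0.5 RPKM in at least 3 libraries and were tested among 14347 genes; the other 18 were not tested.

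The libraries came from C57BL/6 mice at 10 months of age, and each was taken as 1 animal because the design text counts mice. Charcot-Marie-Tooth disease type 2A is an inherited neuropathy of long axons caused by mutations of mitofusin 2, a protein that fuses mitochondrial outer membranes. There were 5 libraries from MFN2-R94Q:MFN1 mice, which carry mitofusin 1 together with the mutant mitofusin 2, 3 from MFN2-R94Q mice, which carry the mutant, and 3 from nontransgenic mice (nTg). The promoters that drive the transgenes, the founder lines, sex and litters are not given by the labels or design text, which name no batch. The comparisons address how the mutant differed from nontransgenic animals, how added MFN1 differed from the mutant without it, and whether both together differed from nTg.

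Collagens are built from chains with long Gly-X-Y repeats that wind into a triple helix. Fibrillar collagens form tensile fibres, fibril-associated collagens decorate them, and type IV collagen builds the sheet of the basement membrane, to which laminin binds cells and which nidogen links to laminin. In the central nervous system basement membranes line blood vessels and the surface beneath the meninges, while fibrillar collagen and small leucine-rich proteoglycans are products mainly of meningeal and perivascular fibroblasts. Slc6a13, a GABA and taurine transporter, and Aldh1a2, which makes retinoic acid, are known as meningeal genes.

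The recovered depth of the 11 libraries was 30.54 to 71.76 M reads and overlapped between the groups. Mouse Mfn1 was at 25.0 ± 0.552 RPKM in MFN2-R94Q:MFN1, 26.3 ± 0.419 in MFN2-R94Q and 24.9 ± 0.675 in nTg (SD, n = 5, 3 and 3), and Mfn2 lay between 43.35 and 47.69 RPKM in all 11 libraries. The files do not say whether transgene reads are counted there, so these genes do not check the labels. Along the first principal component, which held 39.6% of the variance, MFN2-R94Q replicate 2 lay at 27.0, the other MFN2-R94Q libraries at 6.20 and 8.05, and the remaining 8 between -8.23 and -2.48. Of the listed spinal cord genes, Snap25 and Mbp averaged over 900 RPKM in every group. Others were lower over the 11 libraries, with Hoxc10 at 26.6 to 32.9 RPKM, Chat at 9.93 to 11.9 and Hoxc9 at 3.97 to 4.99. Of 12 skeletal muscle genes 3 passed the filter, Pvalb at a mean of 66.2 RPKM, which neurons also express, Myh7 at 1.03 and Mylpf at 0.983; the other 9 had means of at most 0.286 RPKM (Acta1).

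MFN2-R94Q:MFN1 replicate 3 stood apart in genes of peripheral nerve and meninges. Prx, a gene of Schwann cell myelin, had 1.15 RPKM there and at most 0.166 RPKM in the other 10 libraries. The fibroblast transporter Slc22a6 was at 0.286 RPKM in that library and listed at 0 in the other 4 of its group. Slc47a1 reached 0.593 RPKM, Slc13a4 0.752, Crabp2 1.07, Igf2 4.46 and Islr 2.07, each above every other library. Members were high in it as well: Ogn at 2.09 RPKM against 0.536 to 0.674 in the other 4 libraries of the group, Aldh1a2 at 2.69 against 1.34 to 1.55, and Slc6a13 at 1.48 against 0.457 to 0.742. Foxc1 was not separated in the same way: it had 0.639 RPKM there against 0.509 to 0.617. Pdgfra, which oligodendrocyte precursors also express, had 6.34 against 6.14 to 6.5. Calls in the comparisons of MFN2-R94Q:MFN1 are therefore given with and without replicate 3, apart from genes below the filter on low values.

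**Figure D1:**
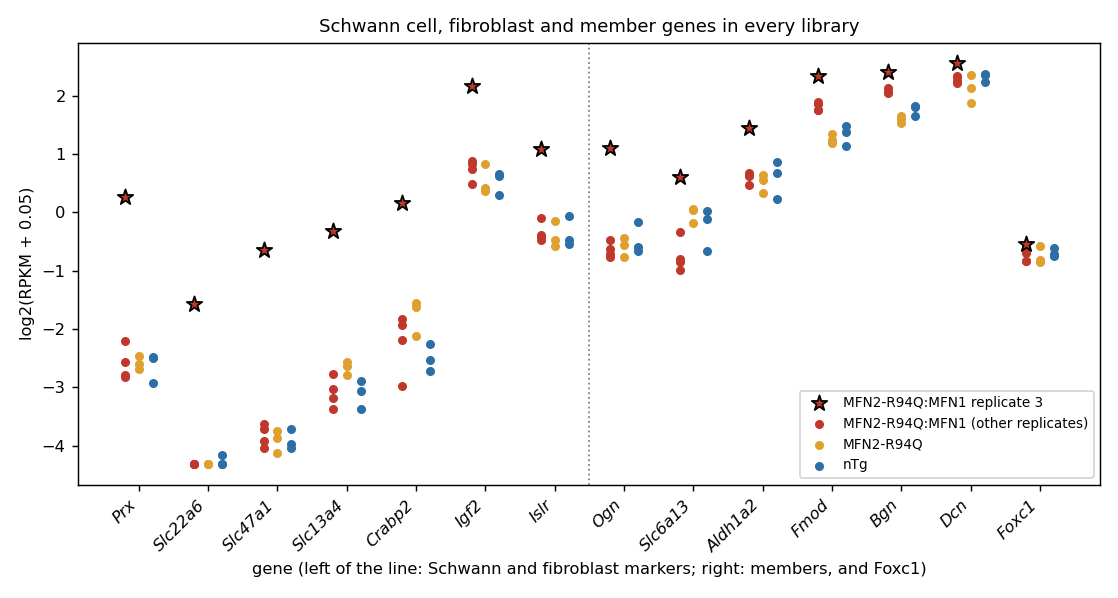
Each column is a gene and each point a library, on a log2(RPKM + 0.05) axis; stars mark MFN2-R94Q:MFN1 replicate 3, and the groups run left to right as MFN2-R94Q:MFN1, MFN2-R94Q and nTg. The star lies above all other points for every gene shown, far above for Slc47a1 (0.593 RPKM) and Ogn (2.09 RPKM) and by little for Foxc1 (0.639 RPKM).

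Levels of the members spanned 4 orders of magnitude. Sparc, which encodes a collagen-binding matrix glycoprotein that astrocytes and other glia secrete, had 416 to 557 RPKM and alone made up 68.8% to 75.2% of the summed RPKM of the set. Col4a3bp and Col16a1 were the other members with a mean over 10 RPKM. A further 12 members averaged 5 to 10 RPKM, 24 averaged 1 to 5, 14 averaged 0.5 to 1, and 20 averaged under 0.5. The type I chains, the main fibrillar collagen of connective tissue, were modest, with Col1a2 at 4.63 to 5.68 RPKM and Col1a1 at 0.821 to 1.37 RPKM. Among fibrillar chains the highest were Col11a1 (8.11 to 10.8 RPKM) and Col11a2 (7.02 to 10.4 RPKM), which form type XI collagen, known best from cartilage.

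**Figure D2:**
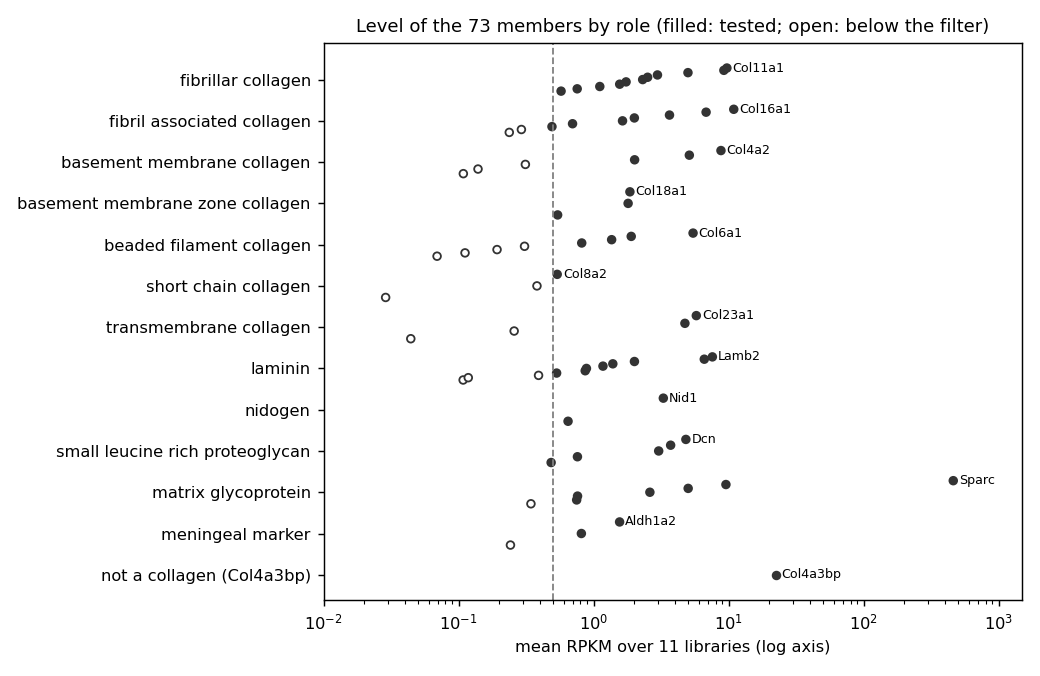
Mean RPKM over the 11 libraries (log axis) of each of the 73 members, in rows by role; filled points were tested, open points were below the filter, and the dashed line marks 0.5 RPKM. Sparc lies far to the right, and the highest member of each role is named.

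In MFN2-R94Q against nTg, 4 members rose and 3 fell of the 55 tested, by limma at an adjusted p under 0.05. Wisp2, Col5a3, Lamc3 and Lama5 rose, and Nid1, Col4a2 and Col16a1 fell. Over all 14347 genes 17.9% passed in this comparison, 7.5% higher and 10.4% lower (8.47% to 19.9% with 1 library left out), and the share among the members was 12.7%. The median log2 fold change, on the log2(RPKM + 0.5) scale as all fold changes below, was 0.015 over the members and -0.0024 over all genes. In 15 members the MFN2-R94Q and nTg libraries did not overlap (8 all higher, 7 all lower), 27.3% of the members against 35.7% of all genes (16.6% higher and 19.1% lower). As in every bulk tissue sample, fewer cells of a type and less RNA per cell cannot be told apart.

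Between the transgenic groups, 9 members rose and 2 fell in MFN2-R94Q:MFN1 against MFN2-R94Q. Fmod, Bgn, Nid1, Aebp1, Col12a1, Lum, Nid2, Col27a1 and Col16a1 rose, and Col5a3 and Col25a1 fell. The share called was 20% of the members against 12.9% of all genes (9.55% higher and 3.33% lower; 6.16% to 15.5% with 1 library left out), and the medians were 0.040 and 0.012. The libraries did not overlap in 15 members, 11 higher and 4 lower, or 27.3% against 20.1% of all genes (13.1% higher and 7.05% lower). Without MFN2-R94Q:MFN1 replicate 3, the median was 0.019, with 7 members higher and 2 lower by limma. Leaving out MFN2-R94Q replicate 2 gave 6 higher and 0 lower. This comparison and the first share the MFN2-R94Q libraries.

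Compared with nTg, MFN2-R94Q:MFN1 had 6 members that rose: Wisp2, Aebp1, Fmod, Bgn, Col12a1 and Col1a1. By limma 0 fell (3 members were lower at an unadjusted p under 0.05), and 0 fell with any single library left out. Of all genes 2.31% passed (2.09% higher, 0.223% lower; 1.32% to 4.11% with 1 library left out), against 10.9% of the members, with medians of 0.0083 over all genes and 0.060 over the members. In 17 members the libraries did not overlap (14 higher and 3 lower), 30.9% against 14.1% of all genes (9.03% higher and 5.05% lower). Without replicate 3 of MFN2-R94Q:MFN1, 4 members rose and the median was 0.032. These 3 comparisons share libraries pairwise and are not independent of each other. The members were chosen with earlier results of these data known, so their shares in all 3 are a description and no test of the set. Wisp2, among those called, passed the filter only through the groups where it was high.

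**Figure D3:**
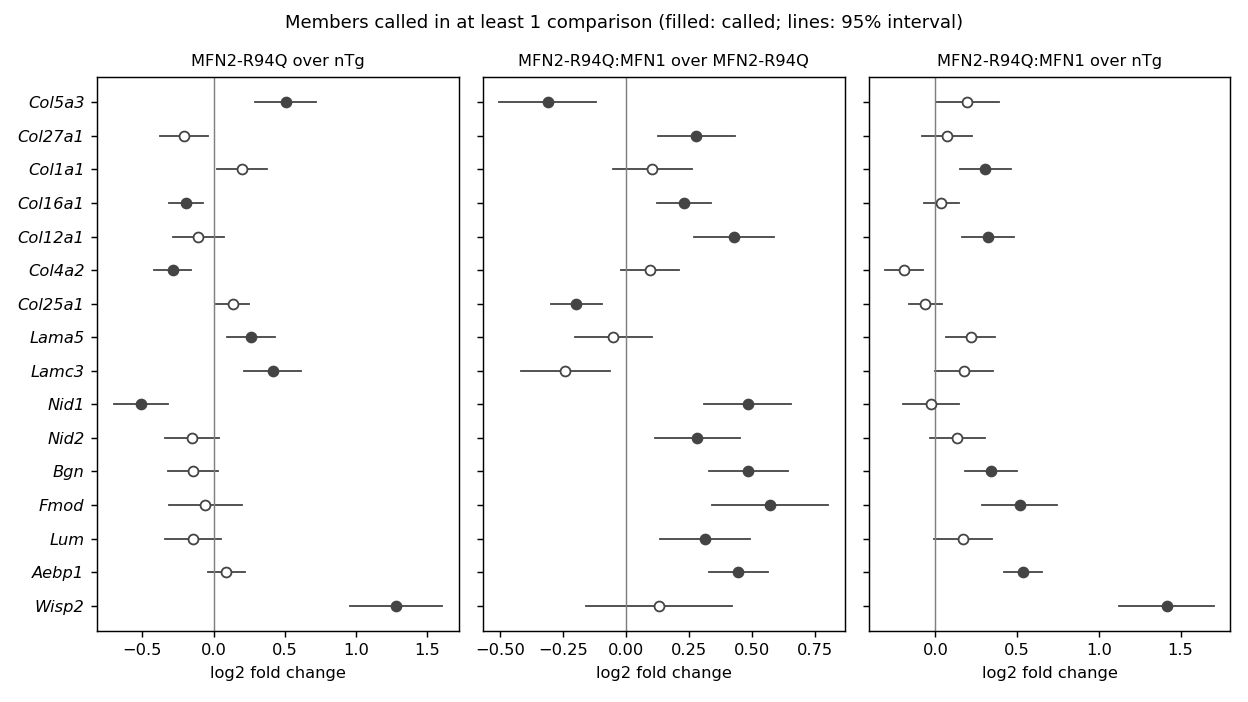
Log2 fold change on the log2(RPKM + 0.5) scale with its 95% interval for the 16 members that passed the limma threshold in at least 1 comparison; filled points passed in that panel. Wisp2 lies furthest right in the first and last panels (1.28 and 1.41), and Nid1 lies left in the first panel (-0.51) and right in the middle one (0.48).

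Fibrillar collagens, 11 of 11 tested, had 1 member higher in MFN2-R94Q than in nTg and 0 lower, and the median over the chains was -0.051. The riser was Col5a3, the third chain of type V collagen, a regulator of fibre diameter, at chr9:20770050-20815067 on GRCm38. Col5a3 was at 3.05, 4.39 and 3.65 RPKM in MFN2-R94Q, against 2.44, 2.22 and 2.65 RPKM in nTg. All MFN2-R94Q libraries lay above all nTg libraries, and replicate 2 was the highest. The log2 fold change was 0.51 ± 0.099 (SE; limma adjusted p = 0.0065), and 0.39 without that replicate (limma adjusted p = 0.0136). In MFN2-R94Q:MFN1 its values were 2.76, 3.10, 2.87, 2.66 and 2.91 RPKM, which overlapped those of MFN2-R94Q through 1 library. The fall of 0.31 against MFN2-R94Q passed narrowly (limma adjusted p = 0.0388) and was lost in 10 of 20 alternatives, among them without MFN2-R94Q replicate 2 (-0.19, adjusted p = 0.168) or 3 (0.0724), without nTg replicate 1 (0.0524) and without any 1 of the 5 MFN2-R94Q:MFN1 libraries (0.0503 to 0.0759; replicate 3, 0.061). Against nTg, MFN2-R94Q:MFN1 did not pass (0.20, limma adjusted p = 0.315).

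Col1a1 was at 1.18, 1.32, 1.37, 1.17 and 1.13 RPKM in MFN2-R94Q:MFN1, 1.17, 1.13 and 1.04 RPKM in MFN2-R94Q, and 0.861, 0.821 and 1.04 RPKM in nTg. Both transgenic groups lay above nTg, by a small margin in MFN2-R94Q. The rise in MFN2-R94Q:MFN1 against nTg was 0.30 ± 0.073 (limma adjusted p = 0.0477) and was lost in 14 of 20 alternatives, including without nTg replicate 1 or 2 (adjusted p = 0.182 and 0.21), MFN2-R94Q replicate 1 or 3 (0.0541 and 0.0598) or any 1 of the 5 MFN2-R94Q:MFN1 libraries (0.0593 to 0.107, the highest without replicate 3). Its partner in the type I helix, Col1a2, did not pass in any comparison, with log2 fold changes of 0.051, 0.022 and 0.074. Col27a1, a short fibrillar chain, had 2.67, 2.38, 2.41, 2.59 and 2.40 RPKM in MFN2-R94Q:MFN1, against 1.95, 1.74 and 2.21 RPKM in MFN2-R94Q. It rose by 0.28 between these groups (limma adjusted p = 0.0231; 0.29 and 0.036 without MFN2-R94Q:MFN1 replicate 3, 0.21 and 0.101 without MFN2-R94Q replicate 2), while its nTg values of 2.33, 2.16 and 2.55 RPKM overlapped with both. The other fibrillar chains (Col11a1, Col11a2, Col5a1, Col5a2, Col24a1, Col2a1 and Col3a1) did not pass in any comparison. Col24a1 came nearest, at -0.19 in MFN2-R94Q:MFN1 against MFN2-R94Q (limma adjusted p = 0.0518), with all 5 libraries below all 3.

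Among fibril-associated collagens, 7 of 9 were tested. Col12a1 lies at chr9:79598991-79718831 and Col16a1 at chr4:130047840-130099283 on GRCm38. Col12a1, which bridges collagen I fibrils in dense connective tissue, was at 2.09, 1.95, 1.92, 1.84 and 1.89 RPKM in MFN2-R94Q:MFN1, 1.30, 1.25 and 1.39 RPKM in MFN2-R94Q, and 1.70, 1.23 and 1.44 RPKM in nTg. The lowest MFN2-R94Q:MFN1 library lay above every library of the other groups. It rose by 0.43 ± 0.074 against MFN2-R94Q (limma adjusted p = 0.00448; 0.43 and 0.0106 without replicate 3). Against nTg it rose by 0.32 (limma adjusted p = 0.04), a call lost in 10 of 20 alternatives. These included nTg replicate 2 or 3 left out (adjusted p = 0.192 and 0.123), MFN2-R94Q replicate 3 (0.0529) and any 1 of the 5 MFN2-R94Q:MFN1 libraries (0.0693 to 0.0878; replicate 3, 0.0804). Replicate 3 held 1.92 RPKM of Col12a1, within the range of the other 4 libraries.

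Col16a1, the most abundant collagen of the cord by RPKM, had 12.0, 11.5, 11, 11 and 11.9 RPKM in MFN2-R94Q:MFN1, 9.27, 9.29 and 10.6 RPKM in MFN2-R94Q, and 11.2, 10.9 and 11.4 RPKM in nTg. The MFN2-R94Q libraries were the lowest of the 11. It fell by 0.19 in MFN2-R94Q against nTg (limma adjusted p = 0.0312), a call lost in 8 of 20 alternatives. It did not pass without MFN2-R94Q replicate 1 (adjusted p = 0.0774) or 2 (-0.16, 0.0899), nor without any 1 of the 3 nTg libraries (0.0619 to 0.0906). It rose by 0.23 in MFN2-R94Q:MFN1 against MFN2-R94Q (limma adjusted p = 0.0123) and kept that call without replicate 2 of MFN2-R94Q (0.20, adjusted p = 0.0456) and without replicate 3 of MFN2-R94Q:MFN1 (0.25, adjusted p = 0.0172). Col9a3, a chain of type IX collagen, had 6.92 to 7.94 RPKM in MFN2-R94Q:MFN1, all above the 5.52 to 6.49 RPKM of nTg, but the difference of 0.25 did not pass (limma adjusted p = 0.102). Col9a2, Col19a1, Col20a1 and Col22a1 did not pass in any comparison.

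Basement membrane collagens are the chains of type IV, of which Col4a1, Col4a2 and Col4a5 were tested. Col4a1 and Col4a2 assemble together, and their genes lie head to head on chromosome 8, transcribed away from each other. Their RefSeq starts on GRCm38.p6 are at 11312826 for Col4a1 on the minus strand and 11312805 for Col4a2 on the plus strand, so the transcripts overlap by 22 bases. Col4a2 had 9.24, 9.12, 8.01, 8.11 and 8.47 RPKM in MFN2-R94Q:MFN1, 7.95, 7.59 and 8.46 RPKM in MFN2-R94Q, and 9.62, 9.81 and 10.2 RPKM in nTg. Both transgenic groups lay wholly below nTg. The fall in MFN2-R94Q was 0.29 ± 0.060 (limma adjusted p = 0.00834; 0.25 and 0.0232 without replicate 2), and the difference of -0.19 in MFN2-R94Q:MFN1 did not pass (limma adjusted p = 0.0956).

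Col4a1 was also lower in both transgenic groups than in nTg, without passing. It had 5.09, 5.31, 4.76, 4.53 and 4.80 RPKM in MFN2-R94Q:MFN1, 4.91, 5.03 and 4.87 RPKM in MFN2-R94Q, and 5.51, 5.34 and 6.16 RPKM in nTg. All transgenic libraries were below all nTg libraries, though the highest of them, at 5.31 RPKM, was close to the lowest nTg library. The differences were -0.18 in MFN2-R94Q (limma adjusted p = 0.0652) and -0.19 in MFN2-R94Q:MFN1 (limma adjusted p = 0.114). Between the transgenic groups neither chain passed, with 0.096 for Col4a2 and -0.013 for Col4a1. Col4a5, on the X chromosome, lay at 1.70 to 2.18 RPKM in all libraries and did not pass. Of 14 markers of endothelial cells, which lie on this membrane, 7 fell and 2 rose in MFN2-R94Q against nTg, with a median of -0.22 (5 and 1 without MFN2-R94Q replicate 2). Between the transgenic groups 6 rose, with a median of 0.21, but 4 without MFN2-R94Q:MFN1 replicate 3 and 0 without MFN2-R94Q replicate 2, when the median was 0.15. Over all genes 10.4% fell and 7.5% rose in MFN2-R94Q against nTg, and 9.55% rose between the transgenic groups. The summed RPKM of the endothelial markers was 156 to 169 in MFN2-R94Q:MFN1, 151 to 186 in MFN2-R94Q and 162 to 168 in nTg. Their part in the collagen values was not tested.

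Collagens of the zone around basement membranes (Col15a1, Col18a1 and Col7a1), beaded-filament and related collagens (Col6a1, Col6a2, Col6a3 and Col26a1 tested) and the short-chain Col8a2 did not pass in any comparison. Type VI collagen forms a filament network around cells, and its chains differed in direction: Col6a1 lay at 4.93 to 5.41 RPKM in MFN2-R94Q:MFN1, all below the 5.59 to 5.79 RPKM of MFN2-R94Q (-0.11, limma adjusted p = 0.121). Col6a2, which pairs with it, was all higher in both transgenic groups than in nTg, by 0.14 in MFN2-R94Q:MFN1 (limma adjusted p = 0.309) and 0.085 in MFN2-R94Q (limma adjusted p = 0.427).

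Transmembrane collagens are type II membrane proteins of neurons and other cells. Col25a1, which in mice is needed for motor axons to innervate muscle, was at 4.59, 4.53, 4.76, 4.22 and 4.35 RPKM in MFN2-R94Q:MFN1, 5.28, 5.34 and 5.02 RPKM in MFN2-R94Q, and 4.72, 4.84 and 4.58 RPKM in nTg. The MFN2-R94Q libraries were the highest 3 of the 11. It fell in MFN2-R94Q:MFN1 against MFN2-R94Q by 0.20 ± 0.047 (limma adjusted p = 0.0186), which did not pass without MFN2-R94Q replicate 2 (-0.18, adjusted p = 0.064) and did without MFN2-R94Q:MFN1 replicate 3 (-0.22, adjusted p = 0.0185). MFN2-R94Q against nTg did not pass (0.13, limma adjusted p = 0.0932). Col23a1 had 5.53 to 6.59 RPKM in MFN2-R94Q:MFN1, 5.34 to 5.54 RPKM in MFN2-R94Q and 5.17 to 6.37 RPKM in nTg, with no call.

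Laminins are trimers of an alpha, a beta and a gamma chain. Of 11 chains 8 were tested, and 2 rose in MFN2-R94Q against nTg with 0 falling. Over all genes 7.5% were higher and 10.4% lower. In 7 of the 8 the log2 fold change was above 0, with a median of 0.12, and 6 of 8 were above 0 after quantile normalization. Without MFN2-R94Q replicate 2, 1 chain rose and the median was 0.057. With these 2 groups fitted alone 0 of 8 rose. Lamc3, a gamma chain encoded at chr2:31887291-31946539 on GRCm38, was at 1.12, 1.16 and 0.971 RPKM in MFN2-R94Q, against 0.527, 0.763 and 0.793 RPKM in nTg. The groups did not overlap. It rose by 0.41 ± 0.092 (limma adjusted p = 0.0105; 0.38 and 0.0344 without replicate 2). Lamc3 lost this call in 1 of 19 alternatives, with these groups fitted alone (limma adjusted p = 0.0613). In MFN2-R94Q:MFN1 it had 0.852, 0.798, 0.860, 0.806 and 0.884 RPKM, all between the other groups, at -0.24 against MFN2-R94Q (limma adjusted p = 0.0711) and 0.17 against nTg (limma adjusted p = 0.335).

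Lama5, the alpha chain of the major vascular laminins, had 1.92, 2.44 and 2.17 RPKM in MFN2-R94Q, against 1.59, 1.75 and 1.82 RPKM in nTg. It rose by 0.27 (limma adjusted p = 0.0349), a call lost in 7 of 20 alternatives. It did not pass without MFN2-R94Q replicate 2 (0.20, adjusted p = 0.121) or 3 (0.0656), nor without any 1 of the 3 nTg libraries (0.0503 to 0.116). Its MFN2-R94Q:MFN1 values of 1.88, 2.14, 2.14, 2.15 and 2.08 RPKM were all above nTg without passing (0.22, limma adjusted p = 0.157). Lamb2 and Lamc1, the most abundant chains, lay at 7.2 to 8.28 and 6.41 to 6.99 RPKM in MFN2-R94Q:MFN1, 7.32 to 8.36 and 6.26 to 8.4 RPKM in MFN2-R94Q, and 6.48 to 7.34 and 5.92 to 6.18 RPKM in nTg. Neither passed; for Lamb2 the difference in MFN2-R94Q was 0.19 (limma adjusted p = 0.0619). Summed over the 11 chains, laminin RPKM was 22.2 ± 0.373 in MFN2-R94Q:MFN1, 22.7 ± 2.11 in MFN2-R94Q and 19.7 ± 0.814 in nTg (SD, n = 5, 3 and 3), and every transgenic library exceeded every nTg library. By limma 0 of 8 laminin chains passed in MFN2-R94Q:MFN1 against MFN2-R94Q (1 higher and 1 lower at an unadjusted p under 0.05) or against nTg (3 higher at that p). Against MFN2-R94Q 1 fell under quantile normalization. Lama1, Lama2, Lama4 and Lamb1 did not pass in any comparison.

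Nidogens bind laminin to type IV collagen. On GRCm38 Nid1 lies at chr13:13437551-13512269 and Nid2 at chr14:19751265-19811787. Nid1 was at 3.42, 3.64, 3.38, 3.67 and 3.77 RPKM in MFN2-R94Q:MFN1, 2.63, 1.97 and 2.70 RPKM in MFN2-R94Q, and 3.64, 3.91 and 3.42 RPKM in nTg. All MFN2-R94Q libraries lay below all others, with replicate 2 the lowest, and the other groups overlapped. Nid1 fell by 0.51 ± 0.089 in MFN2-R94Q against nTg (limma adjusted p = 0.00376). It rose by 0.48 ± 0.080 in MFN2-R94Q:MFN1 against MFN2-R94Q (limma adjusted p = 0.00358). Without MFN2-R94Q replicate 2 these were -0.39 (adjusted p = 0.00407) and 0.36 (adjusted p = 0.00455), and without MFN2-R94Q:MFN1 replicate 3 the second was 0.50 (adjusted p = 0.00742). Against nTg, MFN2-R94Q:MFN1 differed by -0.027, with a 95% interval of -0.20 to 0.15. The endothelial counts are given with type IV collagen. Of 8 ependymal genes, 2 fell in MFN2-R94Q against nTg and 4 rose in MFN2-R94Q:MFN1 against MFN2-R94Q (2 without replicate 3 of MFN2-R94Q:MFN1, and 2 without replicate 2 of MFN2-R94Q), with summed RPKM of 27.1 to 31.4 in MFN2-R94Q:MFN1, 22.6 to 24.5 in MFN2-R94Q and 25.9 to 29.1 in nTg. Over all genes 10.4% fell in MFN2-R94Q against nTg and 9.55% rose in MFN2-R94Q:MFN1 against MFN2-R94Q. The part of either marker list in the Nid1 values was not tested.

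Nid2, its less abundant homologue, had 0.657, 0.666, 0.777, 0.740 and 0.848 RPKM in MFN2-R94Q:MFN1, 0.482, 0.465 and 0.602 RPKM in MFN2-R94Q, and 0.573, 0.683 and 0.627 RPKM in nTg. It rose by 0.28 in MFN2-R94Q:MFN1 against MFN2-R94Q (limma adjusted p = 0.0324), lost in 7 of 19 alternatives. Among these were MFN2-R94Q replicate 1 or 2 left out (adjusted p = 0.0715 and 0.123) and MFN2-R94Q:MFN1 replicate 3, 4 or 5 left out (0.0572, 0.057 and 0.0722). The fold change of -0.15 in MFN2-R94Q against nTg did not pass (limma adjusted p = 0.238).

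Small leucine-rich proteoglycans coat collagen fibrils and bind growth factors of the TGF-beta family. By limma 0 of the 5 passed in MFN2-R94Q against nTg, and 0 at an unadjusted p under 0.05; all 5 log2 fold changes were below 0, with a median of -0.14. Of the 5, 3 rose in MFN2-R94Q:MFN1 against MFN2-R94Q and all 5 were above 0, with a median of 0.31, and 0.29 without replicate 3, when 2 of 5 rose. Over all genes 9.55% rose in this comparison. Lum, among the 3, passed the filter only through the group where it was high. Quantile normalization and the other scalings kept the signs of both medians. Against nTg 2 of 5 rose, beside 2.09% of all genes, with a median of 0.17. Their summed RPKM was 14.7 ± 2.35 in MFN2-R94Q:MFN1, 10.7 ± 0.664 in MFN2-R94Q and 11.9 ± 0.883 in nTg (SD, n = 5, 3 and 3). The lowest MFN2-R94Q:MFN1 library, at 13.2 RPKM, exceeded the highest of the others, at 12.7.

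Bgn, at chrX:73483602-73495933 on GRCm38, encodes biglycan. It was at 4.13, 4.11, 5.24, 4.32 and 4.15 RPKM in MFN2-R94Q:MFN1, 3.08, 2.84 and 3.00 RPKM in MFN2-R94Q, and 3.10, 3.47 and 3.49 RPKM in nTg. Replicate 3 was the highest, and the other 4 libraries still lay above all 6 of the other groups. Bgn rose by 0.49 ± 0.073 against MFN2-R94Q (limma adjusted p = 0.00224; 0.43 and 0.00213 without replicate 3). Against nTg it rose by 0.34 (limma adjusted p = 0.0262; 0.28 and 0.0209 without replicate 3), a call lost in 7 of 20 alternatives. It did not pass without nTg replicate 1, 2 or 3 (adjusted p = 0.146, 0.0708 and 0.063) or without MFN2-R94Q:MFN1 replicate 4 (0.0613).

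Fmod, at chr1:134037254-134048277 on GRCm38, encodes fibromodulin, which steers collagen fibril growth. Its values were 3.59, 3.35, 5.00, 3.65 and 3.32 RPKM in MFN2-R94Q:MFN1, 2.25, 2.33 and 2.48 RPKM in MFN2-R94Q, and 2.15, 2.73 and 2.54 RPKM in nTg. Here too replicate 3 was highest, and the remaining libraries of the group lay above those of both other groups. The rise against MFN2-R94Q was 0.57 ± 0.11 (limma adjusted p = 0.00665; 0.48 and 0.00382 without replicate 3). Against nTg it was 0.52 (limma adjusted p = 0.0227; 0.42 and 0.00949 without replicate 3). It was lost in 4 of 20 alternatives, among them without nTg replicate 1 or 3 (adjusted p = 0.131 and 0.0692) and without MFN2-R94Q:MFN1 replicate 4 (0.0524).

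Lum, lumican, reached 0.5 RPKM in all 5 MFN2-R94Q:MFN1 libraries and in 1 other, so it passed the filter only through the group where it was high. It had 0.645, 0.535, 0.634, 0.553 and 0.503 RPKM in MFN2-R94Q:MFN1, 0.440, 0.333 and 0.321 RPKM in MFN2-R94Q, and 0.410, 0.542 and 0.417 RPKM in nTg. It rose by 0.31 against MFN2-R94Q (limma adjusted p = 0.0278) and missed the threshold without MFN2-R94Q:MFN1 replicate 1 or 3 (adjusted p = 0.0569 and 0.0526) and without MFN2-R94Q replicate 2 or 3 (0.0995 and 0.0755). Dcn, decorin, had 4.72, 4.96, 5.88, 5.02 and 4.59 RPKM in MFN2-R94Q:MFN1, 5.10, 4.35 and 3.62 RPKM in MFN2-R94Q, and 4.68, 5.12 and 5.05 RPKM in nTg, with no call. Ogn, osteoglycin, did not pass either; 4 libraries of MFN2-R94Q:MFN1 held 0.536 to 0.674 RPKM, replicate 3 held 2.09, MFN2-R94Q 0.539 to 0.690 and nTg 0.579 to 0.840.

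Fibroblast markers give the setting of these values. Of 24 listed genes 10 were tested: 2 rose and 1 fell in MFN2-R94Q against nTg (1 and 0 without MFN2-R94Q replicate 2, 1 and 1 without MFN2-R94Q:MFN1 replicate 3), 2 rose and 1 fell in MFN2-R94Q:MFN1 against MFN2-R94Q (1 and 1, and 2 and 1 without the same libraries), and 0 passed in MFN2-R94Q:MFN1 against nTg by limma (2 higher at an unadjusted p under 0.05). Their summed RPKM was 126 to 136 in MFN2-R94Q:MFN1, 131 to 138 in MFN2-R94Q and 123 to 130 in nTg. Most of it came from Spp1 and Gjb6, which other cells of the cord also express. Of the 10 tested, 8 had a log2 fold change above 0 in MFN2-R94Q:MFN1 against MFN2-R94Q, with a median of 0.19. This median was 0.091 without MFN2-R94Q:MFN1 replicate 3 and 0.13 without MFN2-R94Q replicate 2. In MFN2-R94Q against nTg 4 were above 0, with a median of -0.029. In MFN2-R94Q:MFN1 against nTg 6 were above 0, with a median of 0.011. Slc22a6 was listed at 0 in all MFN2-R94Q libraries. Foxc1 averaged 0.569 ± 0.0591 RPKM in MFN2-R94Q:MFN1, 0.548 ± 0.0642 RPKM in MFN2-R94Q and 0.573 ± 0.0311 RPKM in nTg (SD, n = 5, 3 and 3). The part of fibroblast content in the proteoglycan values was not tested. This holds for replicate 3 as well, for which only the values with and without it are given.

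Among the matrix glycoproteins 6 of 7 were tested, Aebp1 lying at chr11:5861947-5872088 on GRCm38. Aebp1, which encodes a secreted protein that binds collagen and is abundant in connective tissue, was at 10.9, 11.2, 12.4, 11.9 and 10.8 RPKM in MFN2-R94Q:MFN1, 8.12, 8.59 and 8.03 RPKM in MFN2-R94Q, and 7.38, 7.52 and 8.30 RPKM in nTg. Every MFN2-R94Q:MFN1 library lay more than 2 RPKM above every other library, and the other groups overlapped. It rose by 0.45 ± 0.054 against MFN2-R94Q (limma adjusted p = 0.000831) and by 0.54 ± 0.054 against nTg (limma adjusted p = 0.000106). Without replicate 3 these were 0.42 (adjusted p = 0.0021) and 0.51 (adjusted p = 0.000304), and both calls held in all 20 alternatives. MFN2-R94Q against nTg did not pass (0.089, limma adjusted p = 0.322).

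Wisp2, also named Ccn5, encodes a secreted protein of the CCN family and lies at chr2:163820861-163833146 on GRCm38. It was at 1.01, 0.970, 0.973, 1.22 and 1.02 RPKM in MFN2-R94Q:MFN1 and 0.625, 1.38 and 0.805 RPKM in MFN2-R94Q, against 0.0938, 0.0259 and 0.114 RPKM in nTg. No transgenic library came near the nTg range, which stands for about 8.7, 1.9 and 6.8 reads, against about 32.8 to 119.6 reads in the transgenic libraries. Wisp2 passed the filter on low values only through the groups where it was high. On the log2(RPKM + 0.5) scale, which understates the change of so low a gene, it rose by 1.28 ± 0.15 in MFN2-R94Q against nTg (limma adjusted p = 0.00112) and by 1.41 ± 0.13 in MFN2-R94Q:MFN1 against nTg (limma adjusted p = 6.29e-05). The ratios of mean RPKM were 12.1 and 13.4. Without MFN2-R94Q replicate 2, the highest library, the rise in MFN2-R94Q was 1.07 (adjusted p = 0.000197). The transgenic groups differed by 0.13, with a 95% interval of -0.16 to 0.42. Without MFN2-R94Q:MFN1 replicate 3 the rise in MFN2-R94Q:MFN1 was 1.43 (adjusted p = 0.000303). Among the 55 tested members the next largest rise against nTg was 0.51 in MFN2-R94Q (Col5a3) and 0.54 in MFN2-R94Q:MFN1 (Aebp1).

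Sparc had 450, 434, 453, 463 and 459 RPKM in MFN2-R94Q:MFN1, 446, 557 and 484 RPKM in MFN2-R94Q, and 416, 473 and 437 RPKM in nTg, with no call; its highest value was MFN2-R94Q replicate 2. Fn1, fibronectin, had 4.74 to 6.31 RPKM in MFN2-R94Q:MFN1, 4.95 to 5.64 RPKM in MFN2-R94Q and 3.82 to 5.24 RPKM in nTg, also with no call (0.25, limma adjusted p = 0.255, and 0.28, limma adjusted p = 0.101, against nTg). Fbln1 and Fbln2, fibulins of the matrix, did not pass in any comparison, nor did Col4a3bp.

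**Figure D4:**
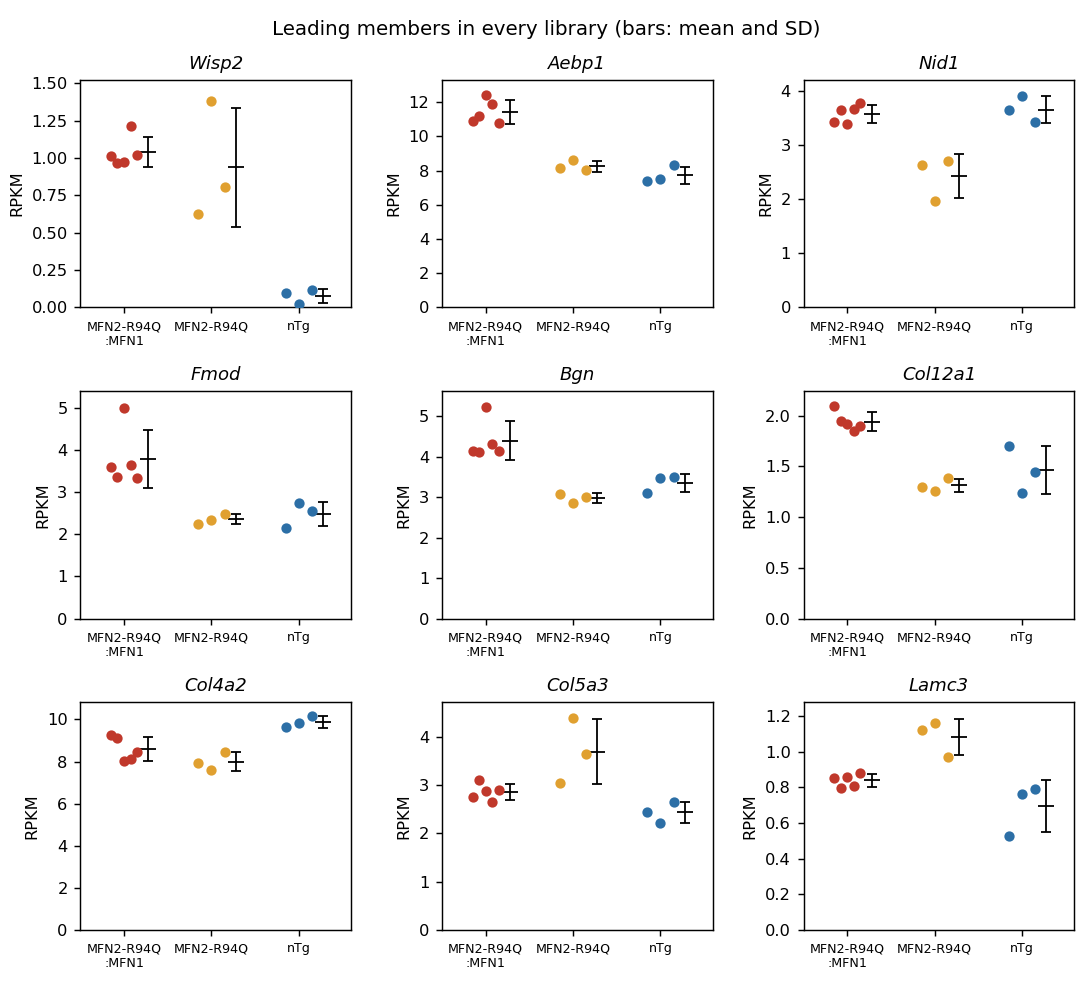
RPKM of 9 members in every library, with the mean and SD of each group beside the points; groups run left to right as MFN2-R94Q:MFN1 (n = 5), MFN2-R94Q (n = 3) and nTg (n = 3), and each axis starts at 0. Wisp2 is near 0 in nTg alone, Nid1 is lowest in MFN2-R94Q, and Aebp1, Fmod, Bgn and Col12a1 are highest in MFN2-R94Q:MFN1.

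Aebp1, Bgn, Nid1 and Fmod had, with Col12a1, the smallest adjusted p of the members in MFN2-R94Q:MFN1 against MFN2-R94Q. Aebp1, Bgn, Nid1 and Fmod were set by hand from the members that passed there, so that they pass together follows from the choice. Col12a1 was left out, although its limma adjusted p was below that of Fmod. In MFN2-R94Q against nTg the log2 fold changes were -0.51 for Nid1, -0.15 for Bgn, -0.057 for Fmod and 0.089 for Aebp1. The sequences upstream of the transcription starts of these genes are shown as a description. They are the plus strand of GRCm38.p6 from RefSeq, up to 250 bases long: Aebp1 at chr11:5861616-5861865, Bgn at chrX:73483351-73483600, Fmod at chr1:134037004-134037253 and Nid1 at chr13:13437352-13437550. Capitals mark matches, on either strand, to 4 motifs. The first is the TATA box, searched as TATAAA. The second is the CCAAT motif. The GC box was searched as GGGCGG, and the core of a steroid receptor site was searched as AGAACA.
Aebp1: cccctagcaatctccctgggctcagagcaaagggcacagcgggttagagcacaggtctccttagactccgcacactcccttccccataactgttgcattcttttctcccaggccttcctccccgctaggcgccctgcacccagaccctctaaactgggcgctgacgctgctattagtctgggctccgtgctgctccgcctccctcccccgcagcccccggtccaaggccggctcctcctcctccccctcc
Bgn: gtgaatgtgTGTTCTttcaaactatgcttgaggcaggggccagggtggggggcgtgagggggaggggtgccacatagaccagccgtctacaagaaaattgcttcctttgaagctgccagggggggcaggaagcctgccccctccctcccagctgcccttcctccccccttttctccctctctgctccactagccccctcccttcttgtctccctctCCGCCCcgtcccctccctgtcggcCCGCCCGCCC
Fmod: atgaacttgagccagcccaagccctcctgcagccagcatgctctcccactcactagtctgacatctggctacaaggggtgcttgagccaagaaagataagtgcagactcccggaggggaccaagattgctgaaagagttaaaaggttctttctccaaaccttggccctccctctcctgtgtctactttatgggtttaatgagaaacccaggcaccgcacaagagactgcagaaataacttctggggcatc
Nid1: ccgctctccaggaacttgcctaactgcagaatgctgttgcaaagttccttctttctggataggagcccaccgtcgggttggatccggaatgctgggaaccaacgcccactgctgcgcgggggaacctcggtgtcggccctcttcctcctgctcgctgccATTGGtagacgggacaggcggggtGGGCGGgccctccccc
The Bgn stretch held 3 GGGCGG matches, of which 2 overlap, and 1 AGAACA match, the Nid1 stretch held 1 CCAAT and 1 GGGCGG match, and the Aebp1 and Fmod stretches held none of the 4 motifs. None held TATAAA. In RefSeq windows of 300 bases (250 before to 50 after each start), 51 of the 73 members matched with 59 windows. GGGCGG occurred in 54.2% of the members' windows and in 35.7% of all 32851 windows. CCAAT occurred in 33.9% and 37.4%, TATAAA in 11.9% and 13.6%, and AGAACA in 13.6% and 19.0%. A match is a run of letters and says nothing of what binds there.

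The meningeal genes Slc6a13 and Aldh1a2 did not pass in any comparison. Slc6a13 was at 0.526, 0.742, 1.48, 0.457 and 0.505 RPKM in MFN2-R94Q:MFN1, 0.986, 0.976 and 0.833 RPKM in MFN2-R94Q, and 0.585, 0.972 and 0.872 RPKM in nTg. Replicate 3 was the highest of the 11, and the other 4 libraries of its group lay below all MFN2-R94Q libraries. With replicate 3 the difference from MFN2-R94Q was -0.26 (limma adjusted p = 0.405). Without it, the fall was 0.44 (limma adjusted p = 0.0367). Slc6a13 is among the genes by which replicate 3 stood apart. Leaving that library out therefore removes the gene's own highest value, and this p is no test of a fall. Aldh1a2 had 1.55, 1.34, 2.69, 1.48 and 1.5 RPKM in MFN2-R94Q:MFN1, 1.51, 1.21 and 1.41 RPKM in MFN2-R94Q, and 1.55, 1.76 and 1.12 RPKM in nTg, overlapping throughout.

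Igfbpl1, a secreted relative of the IGF-binding proteins that is known in mice from immature neurons as well as meninges, did not reach the filter. It was at 0.423, 0.326, 0.271, 0.440 and 0.329 RPKM in MFN2-R94Q:MFN1, 0.203, 0.288 and 0.223 RPKM in MFN2-R94Q, and 0.0610, 0.0589 and 0.0423 RPKM in nTg. All transgenic libraries exceeded all nTg libraries, whose values stand for about 4.2 to 9.4 reads. With no filter on low values it rose by 0.63 in MFN2-R94Q:MFN1 against nTg (limma adjusted p = 0.00167) and by 0.41 in MFN2-R94Q against nTg (limma adjusted p = 0.014), and did not pass between the transgenic groups (0.21, limma adjusted p = 0.0833). Col6a4, also untested for its level, had 0.377, 0.292 and 0.512 RPKM in MFN2-R94Q, against 0.109, 0.219 and 0.206 RPKM in nTg, and without the filter rose by 0.40 (limma adjusted p = 0.0466). The other 16 untested members, among them the type IV chains Col4a3, Col4a4 and Col4a6, the laminins Lama3 and Lamb3, and Postn, had means under 0.5 RPKM. Col10a1, a cartilage chain, was the lowest, at 0.00737 to 0.0467 RPKM.

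**Figure D5:**
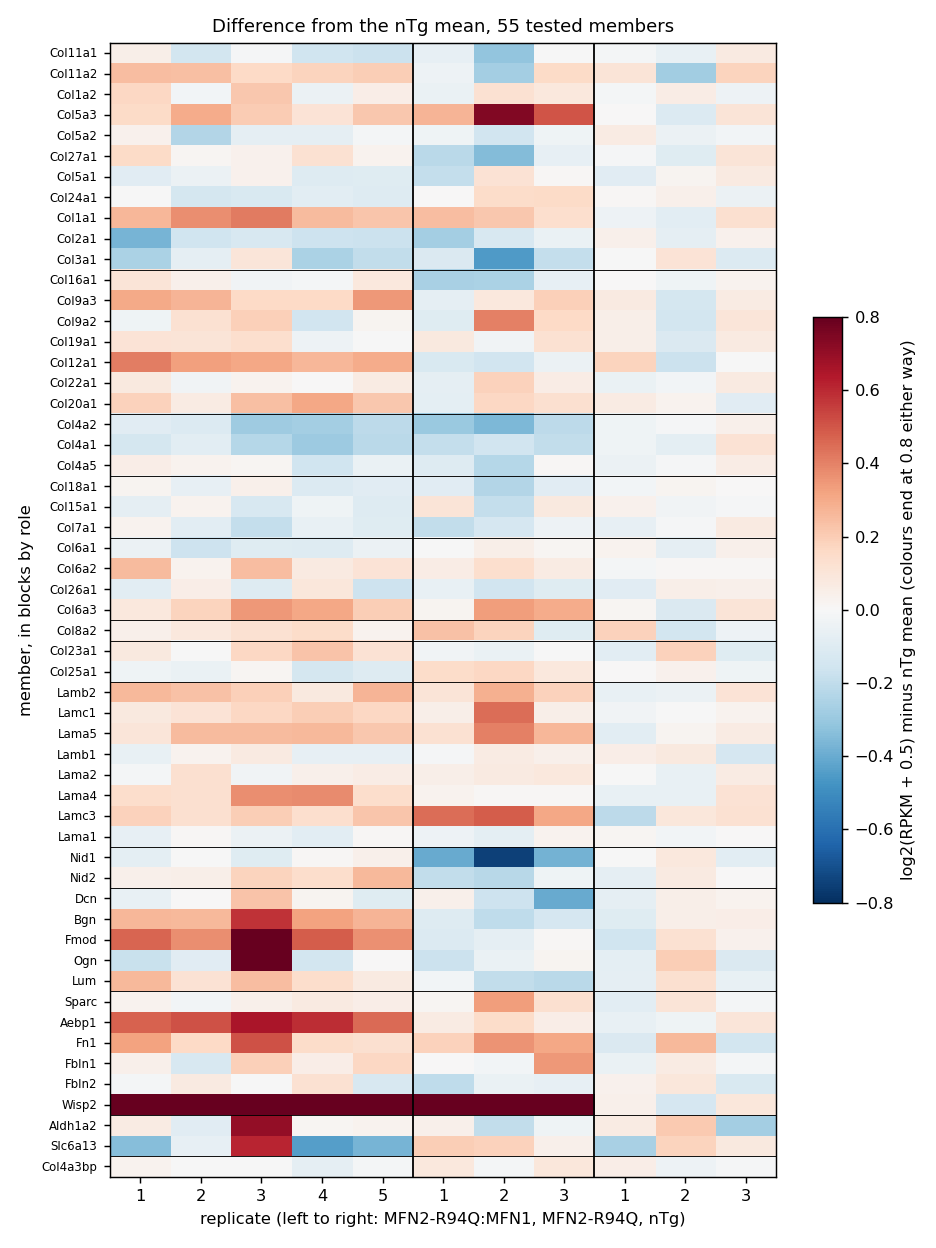
Difference of each library from the nTg mean on the log2(RPKM + 0.5) scale for the 55 tested members, in blocks by role; columns run left to right as MFN2-R94Q:MFN1 replicates 1 to 5, MFN2-R94Q 1 to 3 and nTg 1 to 3, and colours end at 0.8. Wisp2 is dark red in all transgenic columns, Nid1 is darkest blue in MFN2-R94Q, and Fmod, Ogn, Aldh1a2 and Slc6a13 are darkest in MFN2-R94Q:MFN1 replicate 3.

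Enzymes that process collagen are a related list of 30 genes, 27 of them tested. In MFN2-R94Q against nTg 4 rose and 4 fell. Plod1, a lysyl hydroxylase, fell by 0.57 (limma adjusted p = 0.00306), with 11.4 ± 1.56 RPKM in MFN2-R94Q and 17.1 ± 1.09 RPKM in nTg (SD, n = 3 each). Loxl1, which cross-links elastin and collagen, fell by 0.78 (limma adjusted p = 0.00306), with 0.376 ± 0.120 RPKM in MFN2-R94Q and 0.997 ± 0.106 RPKM in nTg. Loxl2, a related cross-linking oxidase, rose by 0.37 (limma adjusted p = 0.00815). Also fallen were P4ha1, a prolyl hydroxylase subunit, and Serpinh1, the collagen chaperone, both named after their values were seen. In MFN2-R94Q:MFN1 against MFN2-R94Q 5 rose and 3 fell, among them Plod1 up by 0.38 (limma adjusted p = 0.0117; 0.43 and 0.00895 without replicate 3) and Loxl1 up by 0.48 (limma adjusted p = 0.0153; 0.51 and 0.0196 without replicate 3). Without MFN2-R94Q replicate 2, 2 rose and 1 fell, and Loxl1 did not pass (0.37, adjusted p = 0.066). Against nTg, MFN2-R94Q:MFN1 had 1 gene higher, Loxl2 (0.49, limma adjusted p = 0.00149; 0.50 and 0.00477 without replicate 3), and 0 lower (2 at an unadjusted p under 0.05); 2 were higher without replicate 3, and 2 without MFN2-R94Q replicate 2. The 8 of 27 called in the first comparison stand beside 17.9% of all genes, and the counts of the later ones beside 12.9% and 2.31%.

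Matrix proteases and their inhibitors, 21 tested of 26, had 1 gene higher and 6 lower in MFN2-R94Q than in nTg. These 7 of 21 stand beside 17.9% of all genes, and the counts of the later comparisons beside 12.9% and 2.31%. In the first, the counts were 0 and 5 without MFN2-R94Q replicate 2, and 2 and 5 without MFN2-R94Q:MFN1 replicate 3. Mmp15, a membrane-bound protease, fell by 0.48 (limma adjusted p = 0.0036). In MFN2-R94Q:MFN1 against MFN2-R94Q 5 rose and 2 fell (5 and 1 without MFN2-R94Q:MFN1 replicate 3, 2 and 1 without MFN2-R94Q replicate 2), and against nTg 2 rose and 1 fell, with or without either library. Timp1, an inhibitor of matrix metalloproteases that reactive astrocytes express, had 1.52 ± 0.325 RPKM in MFN2-R94Q:MFN1, 0.779 ± 0.137 RPKM in MFN2-R94Q and 0.412 ± 0.179 RPKM in nTg (SD, n = 5, 3 and 3). Timp1 passed the filter on low values only through the transgenic groups, where it was higher. It rose by 1.15 in MFN2-R94Q:MFN1 against nTg (limma adjusted p = 0.00092; 1.25 and 0.000351 without replicate 3) and by 0.65 against MFN2-R94Q (limma adjusted p = 0.0166; 0.75 and 0.00816 without replicate 3). Gfap, the intermediate filament of astrocytes, was higher in the same order, at 465 ± 21.5, 392 ± 28.8 and 274 ± 16.0 RPKM in MFN2-R94Q:MFN1, MFN2-R94Q and nTg, and its relation to the matrix genes was not tested.

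Receptors for collagen and laminin, 21 tested of 24, had 4 higher and 2 lower in MFN2-R94Q than in nTg, 4 higher and 1 lower in MFN2-R94Q:MFN1 than in MFN2-R94Q, and 1 higher in MFN2-R94Q:MFN1 than in nTg. The shares of all genes called were 17.9%, 12.9% and 2.31%. Without MFN2-R94Q replicate 2 the counts were 2 and 1, 3 and 0, and 5 and 0, and without MFN2-R94Q:MFN1 replicate 3 they were 3 and 2, 4 and 0, and 1 and 0. Itgb4, the integrin subunit of laminin-binding contacts, fell by 0.41 in MFN2-R94Q (limma adjusted p = 0.00674) and rose by 0.44 in MFN2-R94Q:MFN1 against MFN2-R94Q (limma adjusted p = 0.00348; 0.45 and 0.00827 without replicate 3). Ddr1, a collagen receptor kinase found in oligodendrocytes, rose by 0.37 in the second of these (limma adjusted p = 0.00486; 0.37 and 0.0117 without replicate 3). Cd44, a receptor for hyaluronan and other matrix, rose by 0.51 in MFN2-R94Q:MFN1 against nTg (limma adjusted p = 0.00312; 0.52 and 0.00909 without replicate 3). Of 10 tested Schwann cell markers, 4 fell and 2 rose in MFN2-R94Q against nTg, but 1 fell and 1 rose without MFN2-R94Q replicate 2. In MFN2-R94Q:MFN1 against MFN2-R94Q 4 rose, also with either library left out. Among those 4 were Pllp, Sox10 and Pmp22, and oligodendrocytes express Pllp and Sox10 too. Their part in the receptor values was not tested.

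Of 13 basement membrane partners 1 rose and 2 fell in MFN2-R94Q against nTg, the fallers being Hspg2, perlecan (-0.27, limma adjusted p = 0.0332), and Hmcn1, a hemicentin (-0.29, limma adjusted p = 0.0425). Without MFN2-R94Q replicate 2, 0 passed in either direction (Hspg2 -0.22, adjusted p = 0.11; Hmcn1 -0.23, adjusted p = 0.141), and without MFN2-R94Q:MFN1 replicate 3 Hmcn1 did not pass (adjusted p = 0.0515). The 3 of 13 stand beside 17.9% of all genes. In MFN2-R94Q:MFN1 against MFN2-R94Q 1 rose, and against nTg 0 passed by limma in either direction (3 higher at an unadjusted p under 0.05). The lists that follow stand beside 17.9% of all genes called in MFN2-R94Q against nTg and 12.9% between the transgenic groups. In MFN2-R94Q:MFN1 against nTg the share was 2.31%. Of 22 TGF-beta and fibrosis genes, 2 rose and 3 fell in MFN2-R94Q against nTg, and 5 rose in MFN2-R94Q:MFN1 against MFN2-R94Q with 0 falling (2 lower at an unadjusted p under 0.05). With MFN2-R94Q replicate 2 left out these were 1 and 2, and 3 and 0; without MFN2-R94Q:MFN1 replicate 3 they were 1 and 3, and 5 and 0. Against nTg 1 rose in MFN2-R94Q:MFN1, the receptor Tgfbr1 (0.33, limma adjusted p = 0.00271; 0.32 and 0.00909 without replicate 3), and 2 rose without MFN2-R94Q replicate 2. Of 9 elastic fibre genes 1 rose and 1 fell in MFN2-R94Q against nTg, and 2 rose and 1 fell in MFN2-R94Q:MFN1 against MFN2-R94Q. Leaving out MFN2-R94Q replicate 2 gave 1 and 0, and 0 and 0, and leaving out MFN2-R94Q:MFN1 replicate 3 gave 1 and 1, and 2 and 0. Of 14 genes of the neural matrix around neurons, 2 rose and 4 fell in MFN2-R94Q against nTg, Bcan, Hapln2, Ncan and Acan falling, 0 passed between the transgenic groups by limma (2 higher and 2 lower at an unadjusted p under 0.05), and 1 rose in MFN2-R94Q:MFN1 against nTg. Without MFN2-R94Q:MFN1 replicate 3, 0 rose in the last of these, and without MFN2-R94Q replicate 2, 1 rose and 2 fell there and 1 rose and 4 fell in the first.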

How the data were processed

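The table holds gene RPKM values that the authors deposited for 11 libraries of polyadenylated, stranded RNA from lumbar spinal cord, per the labels' protocols. TopHat and Partek were used with mm10, per the submitters' processing notes; the annotation, strand counting and read filters: not given in the sources used here. RPKM values are not counts, so no count model was fitted. Depth was recovered from the steps of low values: 96.6% to 100% of values of up to 5 reads were whole within 0.02 reads. Precision at low RPKM is limited by these few reads.

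A filter kept genes that reached 0.5 RPKM in 3 or more libraries, tested as log2(RPKM + 0.5) with limma 3.58.1 in R 4.3.3, all 11 libraries in one fit with a mean-variance trend, two-sided, and p-values were adjusted by Benjamini-Hochberg over 14347 genes. A call is an adjusted p under 0.05. The fit was tested on simulated data. The members and lists were chosen with earlier results of these data known. By rule, every member is accounted for by role. Named with values are up to 15 members with the largest rise and fall past the threshold per comparison, the 2 most abundant of each role, up to 3 genes with the smallest p per related list and comparison, and markers past the threshold or among the 3 most abundant of their list. Other genes given with values were chosen after these were seen. Gene positions are GENCODE M21 on GRCm38. Other pseudocounts, filters, scalings, thresholds, 2 groups fitted alone, library weights and single libraries left out were tried.

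Marker lists without a result in the account of the members were as follows, as genes higher and lower by limma in MFN2-R94Q against nTg, MFN2-R94Q:MFN1 against MFN2-R94Q, and MFN2-R94Q:MFN1 against nTg. Over all genes 17.9%, 12.9% and 2.31% passed in these comparisons. Of 11 tested pericyte genes, 0 and 0, 1 and 0, and 0 and 0 passed (3 and 1, 3 and 0, and 5 and 0 at an unadjusted p under 0.05; the 1 did not pass without MFN2-R94Q replicate 2 or without MFN2-R94Q:MFN1 replicate 3). Of 5 bone and cartilage genes, 0 and 2, 1 and 0, and 0 and 0 passed (0 and 1, 0 and 0, and 0 and 0 without MFN2-R94Q replicate 2, and 0 and 1 in the first without MFN2-R94Q:MFN1 replicate 3). Of 13 spinal cord genes, 1 and 2, 2 and 0, and 2 and 0 passed (1 and 1, 2 and 0, and 2 and 1 without MFN2-R94Q replicate 2). Of 3 skeletal muscle, 5 blood and 1 adipocyte genes 0 passed, and at an unadjusted p under 0.05 only the adipocyte gene did, higher in MFN2-R94Q:MFN1 than in nTg. Some genes are not reported here by name.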

Additional observations from a re-analysis of the deposited data

Results flagged for a closer look

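In MFN2-R94Q:MFN1, 8 of the 55 tested members held a library whose gap to its nearest neighbour exceeded 0.71 of the range, Dixon's 95% value for 5 samples. Chance gives about 1 in 20 for a single gene, but these genes share their libraries, so their count has no such expectation. Another 8 were marker genes picked because replicate 3 was high in them, and their number is no evidence. In 13 of these 16 the library was replicate 3. Its members were Aldh1a2 (2.69 RPKM), Bgn (5.24), Fmod (5.00), Ogn (2.09) and Slc6a13 (1.48). Its markers were Prx (1.15 RPKM), Mpzl2 (0.324), Slc47a1 (0.593), Slc22a6 (0.286), Slc13a4 (0.752), Crabp2 (1.07), Igf2 (4.46) and Islr (2.07). Prx and Mpzl2 are Schwann cell genes, and most of the rest are genes of fibroblasts and meninges.

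The other 3 were low Col2a1 (0.562 RPKM) and low Lama5 (1.88) in replicate 1 and high Wisp2 (1.22) in replicate 4.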

How the results depend on the processing

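Counts of members called moved with the settings as follows. In MFN2-R94Q against nTg, members higher were 4, against 2 at an adjusted p under 0.01, 2 with these groups fitted alone and 9 with library weights; members lower were 3, against 5 at an adjusted p under 0.1. In MFN2-R94Q:MFN1 against MFN2-R94Q, members higher were 9, against 5 at 0.01. Members lower were 2, against 0 at 0.01, 4 at 0.1, 1 with no filter, 4 after quantile normalization, 1 with these groups fitted alone and 6 with library weights. In MFN2-R94Q:MFN1 against nTg, members higher were 6, against 2 at 0.01, 3 with no filter and 3 after quantile normalization; members lower were 0, against 1 at 0.1. With 1 library left out, the counts ranged from 3 to 7 higher and 2 to 4 lower, 6 to 10 and 0 to 4, and 2 to 6 and 0 to 0 in the same order of comparisons.

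Over all genes, MFN2-R94Q:MFN1 against MFN2-R94Q had 1370 higher and 478 lower, but 1004 and 833 after quantile normalization, 1057 and 731 after median scaling, 1116 and 753 with a length and GC correction chosen after seeing the data, 2248 and 1130 with library weights, 727 and 155 without MFN2-R94Q replicate 2, and 852 and 245, and 914 and 235 without MFN2-R94Q:MFN1 replicate 2 and 5. MFN2-R94Q against nTg had 1076 and 1485, but 1267 and 1278 after quantile normalization, 743 and 949, 465 and 748, and 634 and 1050 without nTg replicate 1, 2 and 3, 618 and 1000 without MFN2-R94Q replicate 2, 262 and 582 fitted alone and 1667 and 2011 with library weights; MFN2-R94Q:MFN1 against nTg had 300 and 32, but 459 and 106 fitted alone, 180 and 9, 183 and 9, and 187 and 26 without nTg replicate 1, 2 and 3, 191 and 14 without MFN2-R94Q:MFN1 replicate 4, and 478 and 111 without MFN2-R94Q replicate 2. The members' median in MFN2-R94Q against nTg was 0.015, but -0.0041 and -0.0054 under quantile normalization and the length and GC correction. Of single-gene values under the alternatives 0 reversed, 75 lost a call and 28 gained 1; the cause was not tested. Depth limits members under about 0.1 RPKM, such as Wisp2 in nTg. No paired analysis was possible because the replicate numbers follow accession order and pair no animals.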
